A study of Arabidopsis thaliana with 30 samples.

Results

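Leaves of AhHAB4-PAI-1 OE and Ah2880 OE A. thaliana plants were compared 3 days into recovery from heat shock (stage R-3), which took 4 of the 30 RNA-seq libraries of the study, 2 per line. AhHAB4-PAI-1 OE (line 13) carries a grain amaranth gene for an RNA- and hyaluronan-binding protein, and Ah2880 OE (line 12) carries a grain amaranth gene for a small protein of unknown function, both in the Columbia background and both driven by the constitutive CaMV 35S promoter. Plants of both lines, 4 weeks old in the sample labels and 3 weeks old in the methods, had been kept at 45 °C under constant light for 22 h and were then returned to 22 °C. Each library was made from leaves pooled from 10 plants, and 1 homozygous line per transgene was sequenced, so that an effect of the transgene cannot be told apart from any other difference between these lines. No library came from unheated plants. The amaranth transgenes are not among the genes counted, so their expression could not be checked. All 19761 genes that passed a filter on low counts were tested. The comparison asked how the transcriptomes of 2 lines that share the heat treatment and the recovery differed at the latest stage sampled.

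Heat shock unfolds proteins, and heat shock factors answer it by switching on chaperone genes. Small heat shock proteins hold unfolded proteins, HSP70 and HSP90 refold them, and HSP101 pulls aggregates apart. In leaves, a long heat shock also damages photosystem II and stops carbon fixation, so that recovery includes the rebuilding of the photosynthetic apparatus. Leaves short of sugar break down amino acids, lipids and chlorophyll instead, and they share much of this program with senescing leaves. Abscisic acid, jasmonate and salicylic acid set how far stress, defence and growth genes are used, and the glucosinolates are the main sulfur-containing defence compounds of A. thaliana leaves.

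AhHAB4-PAI-1 OE libraries held 5739590 and 2876203 counts on genes, against 1025085 and 1776656 in Ah2880 OE libraries. Values are given as CPM, the counts of a gene scaled to the same total in every library, with totals adjusted by the trimmed mean of M values (TMM). Here 3 counts, taken as the floor of measurement, correspond to 0.477 and 1.01 CPM in AhHAB4-PAI-1 OE and to 2.29 and 1.3 CPM in Ah2880 OE libraries. Log2 fold changes are AhHAB4-PAI-1 OE over Ah2880 OE and carry the standard error (SE) of the fitted model with n = 2 libraries per line. The p-values rest on a spread between pools of plants that was estimated over all 15 treatments (line and stage). That estimate was also moderated across genes, so it is not the spread of these 4 libraries alone. Photosystem genes were among the most abundant transcripts, as in leaves, and 5 of 8 root markers and 4 of 14 seed storage and embryo markers had no count in any of the 4 libraries, but root, flower and seed markers had larger sums in Ah2880 OE. The 4 root markers tested summed to 66.6 and 75.7 CPM in AhHAB4-PAI-1 OE and 168 and 136 CPM in Ah2880 OE leaves, and 2 of them were lower, PYK10 (log2 fold change -1.0) and TIP2;3, which had no count in AhHAB4-PAI-1 OE. The summed level of the 8 flower markers was 18.4 and 24.9 CPM in AhHAB4-PAI-1 OE and 42.0 and 36.8 CPM in Ah2880 OE leaves. Single flower markers went both ways, with 2 called higher and 2 lower. Their median log2 fold change was 0.96, or −0.22 with the 6 genes at the floor of 1 line set to their bound. Entries for 18S rRNA took 1.02% and 1.13% of the counts in AhHAB4-PAI-1 OE and 3.71% and 2.61% in Ah2880 OE libraries, and mitochondrial genes took 0.055% and 0.039% against 0.259% and 0.255%. Depth, rRNA and mitochondrial share and the sums of the root, flower and seed markers thus moved with the line. For depth, a fit after thinning is given beside the count of calls, and the part of the others in the results was not tested.

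With 1 mean fitted per line and stage over all 30 libraries, edgeR’s quasi-likelihood test called 8589 genes at a Benjamini-Hochberg adjusted p under 0.01, which is 43.5% of the genes tested. Of these, 5789 were higher in AhHAB4-PAI-1 OE leaves (29.3%) and 2800 were lower (14.2%). A fit without replicate 2 of both lines at R-1 and R-3 takes the lone library of a group to vary like the other groups. When only the libraries compared were thinned to one depth and fitted, 5506 of 14188 genes tested were called. Of the calls, 5074 kept their direction. Without thinning, a fit of only the libraries compared called 7554 of 17189 genes tested, so the lower count does not reflect depth alone. The balance between the directions depended on the scaling. The median log2 fold change of all genes was 0.32, a fold of 1.25, and 67.4% of the calls were higher, but the median was −0.02 and 47.2% of the calls were higher when a fit left out the shallow WT R-3 libraries (46825 and 50677 counts). Gene lists are therefore described beside the median of 0.32, and counts are also given for calls made in the same direction under all 5 scalings tried. This held for 3734 higher genes (18.9% of those tested) and 2624 lower genes (13.3%). The 5 are TMM, DESeq2 size factors and upper-quartile factors on all 30 libraries, and TMM in refits without the WT R-3 libraries and with only the libraries compared. Such refits also change the filter and the estimated spread. A gene filtered out of a refit counts as not called there. At an adjusted p under 0.05, 53.6% of the genes passed, and with a fitted fold of at least 2 added to the threshold of 0.01, 31.3% did (22.1% higher and 9.20% lower). The lists were chosen with earlier results of these data known, and no list was tested as a set.

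**Figure D1:**
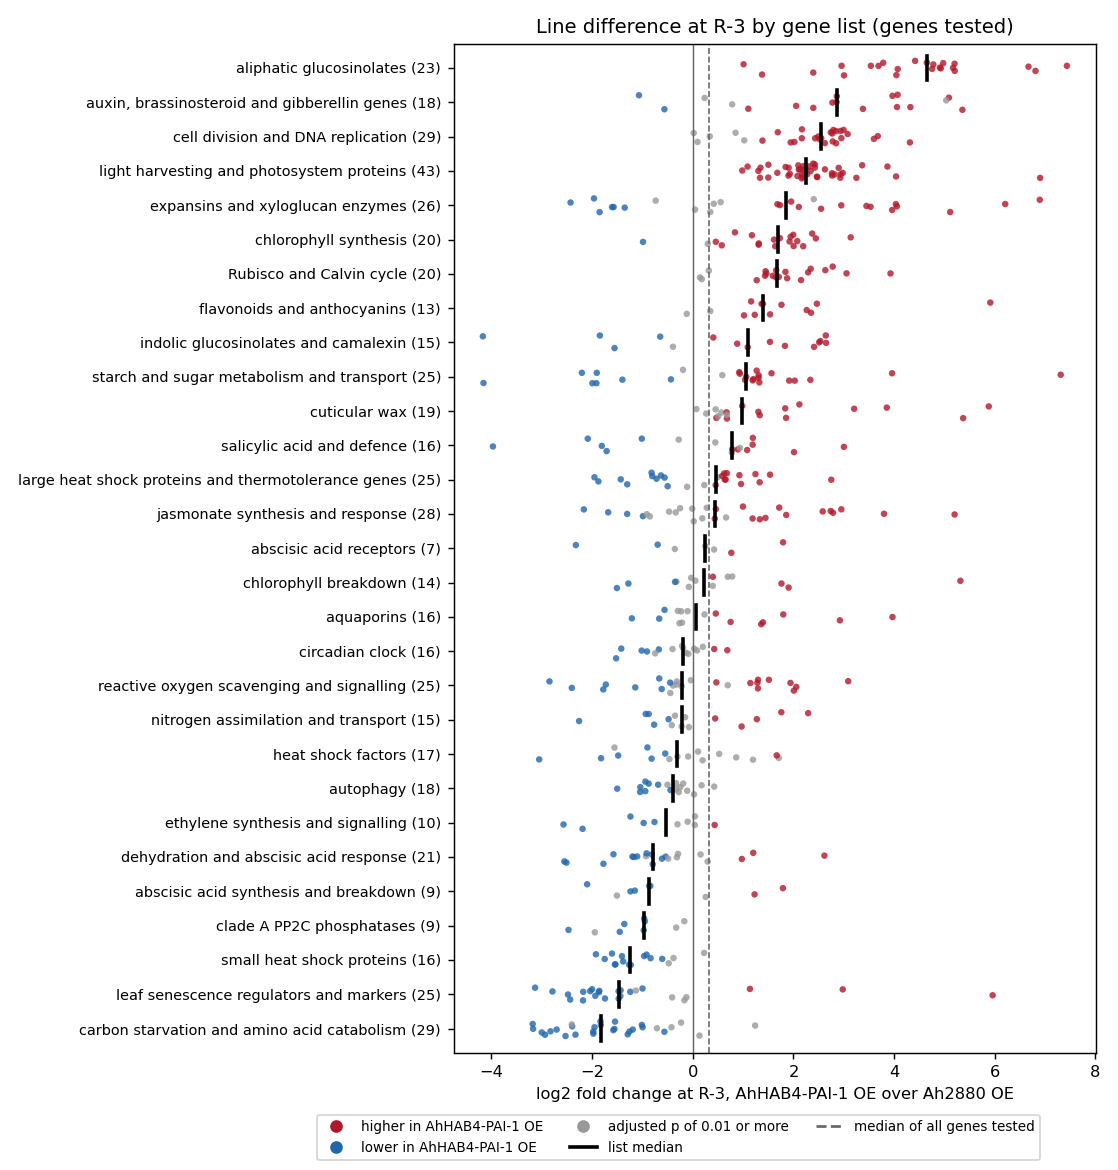
Log2 fold change at R-3, AhHAB4-PAI-1 OE over Ah2880 OE, on the horizontal axis for each tested member of 29 gene lists, with the number of genes tested in parentheses, the list median as a black bar and the median of all genes (0.32) as a dashed line. Medians run from 4.65 in the aliphatic glucosinolate list to −1.83 in the carbon starvation list, and grey points are genes with an adjusted p of 0.01 or more.

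The listed nuclear genes of the photosynthetic light reactions were higher in AhHAB4-PAI-1 OE leaves without exception. Genes of the chloroplast genome, outside the list, took 0.416% and 0.276% of the counts in AhHAB4-PAI-1 OE and 0.408% and 0.343% in Ah2880 OE libraries. All 43 nuclear genes in the list of light-harvesting and photosystem proteins were called higher, also under all 5 scalings, with a median log2 fold change of 2.24 beside 0.32 for all genes. Their summed level was 82781 and 106173 CPM in AhHAB4-PAI-1 OE leaves, against 22458 and 22387 CPM in Ah2880 OE leaves. In bulk leaf tissue, fewer cells of a type and less RNA per cell cannot be told apart. LHCB3, a light-harvesting antenna protein of photosystem II, had 2931 and 3776 CPM in AhHAB4-PAI-1 OE leaves, against 423 and 452 CPM in Ah2880 OE leaves (log2 fold change 2.94, SE 0.14, adjusted p = 3.6e-25). LHCB6, a minor antenna protein that links the trimers to the core, had 2941 and 3646 CPM in AhHAB4-PAI-1 OE leaves, against 454 and 479 CPM in Ah2880 OE leaves (log2 fold change 2.82, SE 0.15, adjusted p = 1.1e-22). The fitted folds were 7.65 for LHCB3 and 7.05 for LHCB6, and the AhHAB4-PAI-1 OE libraries lay above the Ah2880 OE libraries without overlap.

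The largest fold of the list was that of LHCB2.3, with 1294 and 1612 CPM in AhHAB4-PAI-1 OE leaves, against 9.93 and 13.4 CPM in Ah2880 OE leaves (log2 fold change 6.90, SE 0.20, adjusted p = 3.8e-33). The smallest was that of PSBR, a photosystem II subunit, with 465 and 449 CPM in AhHAB4-PAI-1 OE leaves, against 247 and 218 CPM in Ah2880 OE leaves (log2 fold change 0.98, SE 0.15, adjusted p = 1.4e-07), a call lost without replicate 2 of both lines (0.59). LHCB1.2 differed in the same way, with 4515 and 5617 CPM in AhHAB4-PAI-1 OE leaves, against 332 and 359.9 CPM in Ah2880 OE leaves (log2 fold change 3.87, SE 0.16, adjusted p = 2.5e-27). Members of the same subfamily differed by different folds. LHCB1.3 differed less, with 7954 and 10656 CPM in AhHAB4-PAI-1 OE leaves, against 3709 and 3666 CPM in Ah2880 OE leaves (log2 fold change 1.34, SE 0.15, adjusted p = 3.8e-11). The LHCB1 and LHCB2 genes have near-identical copies, so the split of reads among them is uncertain. PSBO1, a protein of the oxygen-evolving complex, had 2733 and 3489 CPM in AhHAB4-PAI-1 OE leaves, against 852 and 879.8 CPM in Ah2880 OE leaves (log2 fold change 1.84, SE 0.13, adjusted p = 2.1e-17). In each of these genes the groups did not overlap. LHCA4, an antenna protein of photosystem I, had 2561 and 3146 CPM in AhHAB4-PAI-1 OE leaves, against 769 and 732 CPM in Ah2880 OE leaves (log2 fold change 1.93, SE 0.13, adjusted p = 3.7e-19). Antenna genes of both photosystems were thus higher.

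Carbon fixation and chlorophyll synthesis followed the light reactions. Of 20 genes for Rubisco subunits, Rubisco activase and Calvin cycle enzymes, 17 were higher and 0 lower, with a median of 1.68, and the same 17 to 0 held under all 5 scalings. PRK, the kinase that makes the acceptor of CO2, had 1108 and 1233 CPM in AhHAB4-PAI-1 OE leaves, against 275 and 253 CPM in Ah2880 OE leaves (log2 fold change 2.15, SE 0.11, adjusted p = 3.1e-23). RCA, the activase that keeps Rubisco open, had 3767 and 4734 CPM in AhHAB4-PAI-1 OE leaves, against 1589 and 1497 CPM in Ah2880 OE leaves (log2 fold change 1.46, SE 0.12, adjusted p = 2.6e-15). RBCS2B, a small subunit gene with near-identical copies, had the highest fold of the list, with 1492 and 1963 CPM in AhHAB4-PAI-1 OE leaves, against 122 and 106 CPM in Ah2880 OE leaves (log2 fold change 3.93, SE 0.16, adjusted p = 1.9e-27). In the chlorophyll synthesis list, 18 of 20 genes were higher (16 under all 5 scalings) and 1 was lower, with a median of 1.68.

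HEMA1, which encodes the glutamyl-tRNA reductase at the entry to tetrapyrrole synthesis in green tissue, had 684 and 561 CPM in AhHAB4-PAI-1 OE leaves, against 141 and 153 CPM in Ah2880 OE leaves (log2 fold change 2.08, SE 0.12, adjusted p = 4.5e-21). The 1 lower gene was its paralog HEMA2, with 23.54 and 26.9 CPM in AhHAB4-PAI-1 OE leaves, against 48.9 and 49.7 CPM in Ah2880 OE leaves (log2 fold change -0.99, SE 0.16, adjusted p = 9.8e-07). CHLH, the large subunit of magnesium chelatase, had 3278 and 2575 CPM in AhHAB4-PAI-1 OE leaves, against 884 and 882 CPM in Ah2880 OE leaves (log2 fold change 1.73, SE 0.13, adjusted p = 2.0e-16). HEMA1 and CHLH act at the entry and at the chelatase branch point of the pathway. DVR, a vinyl reductase of the chlorophyll branch, had 148 and 112 CPM in AhHAB4-PAI-1 OE leaves, against 15.3 and 14.7 CPM in Ah2880 OE leaves (log2 fold change 3.14, SE 0.19, adjusted p = 1.2e-20). All 4 libraries separated by line in these genes, upward in AhHAB4-PAI-1 OE except for HEMA2. PORB and PORC, the light-dependent protochlorophyllide reductases, were also higher, with log2 fold changes of 2.00 and 2.19.

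Chlorophyll breakdown genes went both ways. Of 14 genes, 4 were higher (3 under all 5 scalings) and 3 were lower, where 29.3% and 14.2% of all genes were called higher and lower. The median was 0.22 beside 0.32 for all genes. SGR1, the magnesium dechelatase that starts breakdown in senescing leaves, had 47.2 and 45.8 CPM in AhHAB4-PAI-1 OE leaves, against 46.6 and 48.4 CPM in Ah2880 OE leaves (adjusted p = 0.88). PPH, the pheophytinase, had 112 and 107 CPM in AhHAB4-PAI-1 OE leaves, against 114 and 117 CPM in Ah2880 OE leaves (adjusted p = 0.64). The groups overlapped for SGR1. Without the WT R-3 libraries, PPH was called lower (log2 fold change -0.43) and SGR1 was not called (-0.38). The 3 lower genes were MES16, SGR2 and PAO, with log2 fold changes of -1.51, -1.28 and -0.35. CLH1, a chlorophyllase that responds to jasmonate, had 197 and 179 CPM in AhHAB4-PAI-1 OE leaves, against 3.82 and 5.19 CPM in Ah2880 OE leaves (log2 fold change 5.32, SE 0.22, adjusted p = 2.5e-27), a 39.9-fold difference between non-overlapping groups.

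**Figure D2:**
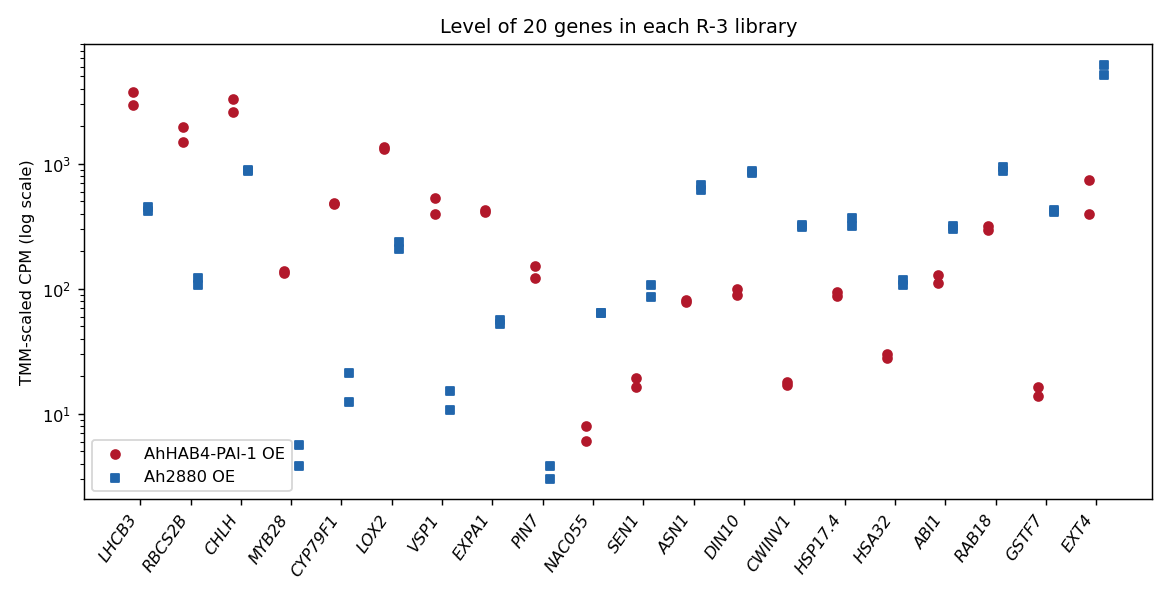
TMM-scaled CPM on a log axis of 20 genes in each R-3 library, with red circles for the 2 AhHAB4-PAI-1 OE libraries and blue squares for the 2 Ah2880 OE libraries. The libraries of a line lie close together, as for LHCB3 with 2931 and 3776 CPM in AhHAB4-PAI-1 OE and 423 and 452 CPM in Ah2880 OE, and AhHAB4-PAI-1 OE values lie above those of Ah2880 OE up to PIN7 and below them from NAC055 on.

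Aliphatic glucosinolate genes formed the list with the highest median. All 23 genes for methionine chain elongation, core structure synthesis, side chain changes and their regulators were higher, under all 5 scalings too, with a median log2 fold change of 4.65 (4.04 with the 4 genes at the floor in Ah2880 OE set to their bound), and their summed level was 4174 and 4099 CPM in AhHAB4-PAI-1 OE leaves, against 313.3 and 321.4 CPM in Ah2880 OE leaves. MYB28, the main transcription factor of the pathway, had 139.8 and 135 CPM in AhHAB4-PAI-1 OE leaves, against 3.82 and 5.62 CPM in Ah2880 OE leaves (log2 fold change 4.78, SE 0.23, adjusted p = 2.2e-24). Its relative MYB29 had 100.5 and 69.6 CPM in AhHAB4-PAI-1 OE leaves, against 2.29 and 6.92 CPM in Ah2880 OE leaves (log2 fold change 4.04, SE 0.30, adjusted p = 1.5e-16). MYB76, another member of the group, had no count in either Ah2880 OE library and 7.48 and 9.42 CPM in AhHAB4-PAI-1 OE leaves, which is at least 4.71-fold higher. The enzymes that these factors regulate differed likewise. MAM1, the synthase of the chain elongation cycle, had 316 and 319 CPM in AhHAB4-PAI-1 OE leaves, against 18.3 and 26 CPM in Ah2880 OE leaves (log2 fold change 3.78, SE 0.15, adjusted p = 5.1e-28). CYP79F1, the enzyme that turns elongated methionine into aldoximes, had 481 and 490.2 CPM in AhHAB4-PAI-1 OE leaves, against 21.4 and 12.5 CPM in Ah2880 OE leaves (log2 fold change 4.93, SE 0.17, adjusted p = 1.5e-30). Regulators and enzymes of the pathway thus differed in the same direction, with no overlap between the lines. The smallest fold of the list was that of IIL1, an isopropylmalate isomerase subunit that leucine synthesis also uses, with 132 and 160.2 CPM in AhHAB4-PAI-1 OE leaves, against 73.4 and 71.4 CPM in Ah2880 OE leaves (log2 fold change 1.01, SE 0.15, adjusted p = 7.2e-08), a call lost without replicate 2 of both lines (0.53).

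Indolic glucosinolate and camalexin genes split. Of 15 tested, 10 were higher (9 under all 5 scalings) and 4 were lower, with a median of 1.09. Genes of the core route were among the higher ones. CYP79B3, which makes indole-3-acetaldoxime from tryptophan, had 116 and 93.2 CPM in AhHAB4-PAI-1 OE leaves, against 15.3 and 17.74 CPM in Ah2880 OE leaves (log2 fold change 2.65, SE 0.19, adjusted p = 5.1e-18). MYB34, a regulator of this route, had 44.1 and 46.1 CPM in AhHAB4-PAI-1 OE leaves, against 5.35 and 8.22 CPM in Ah2880 OE leaves (log2 fold change 2.64, SE 0.25, adjusted p = 6.9e-13). The lower ones included genes that act in pathogen-induced forms of the pathway. CYP81F2, which modifies the indole ring, had 2.23 and 1.35 CPM in AhHAB4-PAI-1 OE leaves, against 36.7 and 35 CPM in Ah2880 OE leaves (log2 fold change -4.17, SE 0.32, adjusted p = 4.3e-17). MYB51 had 4.93 and 2.69 CPM in AhHAB4-PAI-1 OE leaves, against 13 and 16.4 CPM in Ah2880 OE leaves (log2 fold change -1.85, SE 0.34, adjusted p = 6.3e-06). PAD3, the last enzyme of camalexin synthesis, had 4.45 and 3.36 CPM in AhHAB4-PAI-1 OE leaves, against 9.93 and 13.4 CPM in Ah2880 OE leaves (log2 fold change -1.56, SE 0.34, adjusted p = 9.9e-05), and its call was lost without Ah2880 OE replicate 2 (log2 fold change -1.27). The next enzyme after CYP81F2 shared its direction. IGMT2, a methyltransferase that uses the product of CYP81F2, had 0 and 0.336 CPM in AhHAB4-PAI-1 OE leaves and 38.2 and 34.2 CPM in Ah2880 OE leaves, which is at least 48.7-fold higher in Ah2880 OE.

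Growth-related lists also had medians far above that of all genes. In the list of cell division and DNA replication, 24 of 29 tested genes were higher (18 under all 5 scalings), 0 were lower and the median was 2.55, or 1.94 with the 12 genes at the floor in Ah2880 OE set to their bound. Levels were low and summed to 510.9 and 521.9 CPM in AhHAB4-PAI-1 OE and 207.8 and 194.7 CPM in Ah2880 OE leaves. CYCD3;1, a D-type cyclin that drives entry into the cycle, had 27.4 and 34.3 CPM in AhHAB4-PAI-1 OE leaves, against 4.58 and 3.89 CPM in Ah2880 OE leaves (log2 fold change 2.85, SE 0.30, adjusted p = 1.4e-11). MCM2, a subunit of the replicative helicase, had 18 and 16.2 CPM in AhHAB4-PAI-1 OE leaves, against 3.06 and 2.6 CPM in Ah2880 OE leaves (log2 fold change 2.62, SE 0.39, adjusted p = 8.6e-08). CYCB1;1, a mitotic cyclin, had 3.98 and 2.69 CPM in AhHAB4-PAI-1 OE leaves, against 4.58 and 0.433 CPM in Ah2880 OE leaves and did not pass the test (adjusted p = 0.25). Its groups overlapped. Of 4 shoot meristem markers 2 were tested, and their sums of 30.2 and 34.0 CPM in AhHAB4-PAI-1 OE overlapped those of 35.9 and 27.2 CPM in Ah2880 OE leaves, with 0 called.

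Of 18 auxin, brassinosteroid and gibberellin genes tested, 13 were higher and 2 lower, with a median of 2.86, or 2.14 with the 7 genes at the floor in Ah2880 OE set to their bound. PIN7, an auxin efflux carrier, had 151 and 122 CPM in AhHAB4-PAI-1 OE leaves, against 3.82 and 3.03 CPM in Ah2880 OE leaves (log2 fold change 5.36, SE 0.26, adjusted p = 2.5e-25). ROT3, a cytochrome P450 of brassinosteroid synthesis, went the other way, with 20.4 and 17.5 CPM in AhHAB4-PAI-1 OE leaves, against 42.8 and 38.9 CPM in Ah2880 OE leaves (log2 fold change -1.07, SE 0.19, adjusted p = 4.6e-06). Among cell wall loosening genes, 14 of 26 expansin and xyloglucan endotransglucosylase/hydrolase (XTH) genes were higher and 6 lower, with a median of 1.84, or 1.71 with 4 genes at their bound. EXPA1, an expansin, had 409.5 and 429.7 CPM in AhHAB4-PAI-1 OE leaves, against 52 and 55.8 CPM in Ah2880 OE leaves (log2 fold change 2.95, SE 0.13, adjusted p = 1.2e-25). EXPA8 had 123 and 154 CPM in AhHAB4-PAI-1 OE leaves against 1.53 and 0.865 CPM, at or under the floor, in Ah2880 OE leaves, which is at least 77.1-fold higher. XTH30 and XTH22, xyloglucan enzymes of which the second is induced by touch, were lower, with log2 fold changes of -2.43 and -1.57.

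Genes that mark the leaf epidermis, stomata and vasculature moved together with these lists. All 4 epidermis markers were higher under all 5 scalings, and their summed level was 631.6 and 730.8 CPM in AhHAB4-PAI-1 OE leaves, against 247.6 and 247.4 CPM in Ah2880 OE leaves. ATML1, a regulator of epidermal identity, had 84.9 and 76.7 CPM in AhHAB4-PAI-1 OE leaves, against 29 and 24.2 CPM in Ah2880 OE leaves (log2 fold change 1.64, SE 0.17, adjusted p = 7.3e-12). The vascular markers were higher in 6 of 7, with sums of 276.9 and 305.2 CPM against 84.0 and 87.0 CPM, and SUC2, the sucrose carrier of companion cells, had 184 and 202 CPM in AhHAB4-PAI-1 OE leaves, against 61.9 and 59.3 CPM in Ah2880 OE leaves (log2 fold change 1.67, SE 0.14, adjusted p = 2.2e-15). Of 5 tested guard cell and stomatal lineage markers, 5 were higher (3 under all 5 scalings), at sums of 51.5 and 53.5 CPM against 11.46 and 10.81 CPM, and none of these defining markers was at 0 in all 4 libraries. The part of tissue composition in the other lists was not tested. In the cuticular wax list, 13 of 19 genes were higher (10 under all 5 scalings) and 0 lower, with a median of 0.98, and KCS6, an elongase of wax precursors, had 438 and 473 CPM in AhHAB4-PAI-1 OE leaves, against 194 and 176 CPM in Ah2880 OE leaves (log2 fold change 1.3, SE 0.12, adjusted p = 2.6e-14).

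Genes that respond to carbon starvation had the lowest median of the 29 lists plotted, −1.83. Of 29 tested, 0 were higher and 23 lower, and all 23 were lower under all 5 scalings. Their summed level was 1534 and 1549 CPM in AhHAB4-PAI-1 OE leaves, against 5831 and 5579 CPM in Ah2880 OE leaves. ASN1, a dark-inducible asparagine synthetase, had 80.8 and 79.1 CPM in AhHAB4-PAI-1 OE leaves, against 671 and 613 CPM in Ah2880 OE leaves (log2 fold change -3.0, SE 0.12, adjusted p = 7.2e-28), which is 8.01-fold lower. DIN10, a dark-inducible raffinose synthase family gene, had 99.4 and 89.5 CPM in AhHAB4-PAI-1 OE leaves, against 844 and 879 CPM in Ah2880 OE leaves (log2 fold change -3.18, SE 0.12, adjusted p = 2.0e-29). The list also holds the catabolism of single amino acids. BCAT2, an aminotransferase of branched-chain amino acids, had 12.1 and 9.42 CPM in AhHAB4-PAI-1 OE leaves, against 109 and 94.7 CPM in Ah2880 OE leaves (log2 fold change -3.17, SE 0.19, adjusted p = 5.1e-21). ERD5, the proline dehydrogenase, had 26.1 and 28.9 CPM in AhHAB4-PAI-1 OE leaves, against 180.3 and 176 CPM in Ah2880 OE leaves (log2 fold change -2.71, SE 0.14, adjusted p = 2.6e-23). The AhHAB4-PAI-1 OE libraries lay below the Ah2880 OE libraries in each of them without overlap.

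The list was not uniform. PCK1, a phosphoenolpyruvate carboxykinase that serves gluconeogenesis, had 171 and 214 CPM in AhHAB4-PAI-1 OE leaves, against 174 and 174 CPM in Ah2880 OE leaves (adjusted p = 0.34). Its paralog PCK2, which was outside the list and entered through the ranking of all genes, had 0.318 and 0.336 CPM in AhHAB4-PAI-1 OE and 88.6 and 97.8 CPM in Ah2880 OE leaves, at least 125-fold higher in Ah2880 OE. GDH1, a glutamate dehydrogenase, differed little, with 42.1 and 39.7 CPM in AhHAB4-PAI-1 OE leaves, against 61.9 and 60.1 CPM in Ah2880 OE leaves (log2 fold change -0.56, SE 0.16, adjusted p = 0.0025), and its call was lost without any 1 of the 4 libraries (-0.53 to -0.61).

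Of 25 leaf senescence regulators and markers tested, 18 were lower, also under all 5 scalings, and 3 were higher, of which 1 held under all 5 scalings, with a median of −1.47. NAC055, a NAC transcription factor of stress and senescence, had 7.95 and 6.06 CPM in AhHAB4-PAI-1 OE leaves, against 64.2 and 64.5 CPM in Ah2880 OE leaves (log2 fold change -3.13, SE 0.21, adjusted p = 5.2e-19). ORE1, a NAC factor that promotes leaf death, had 15.9 and 9.76 CPM in AhHAB4-PAI-1 OE leaves, against 58.1 and 54.9 CPM in Ah2880 OE leaves (log2 fold change -2.04, SE 0.22, adjusted p = 1.4e-11). SEN1, a marker of dark-induced senescence, had 16.5 and 19.2 CPM in AhHAB4-PAI-1 OE leaves, against 107 and 86.1 CPM in Ah2880 OE leaves (log2 fold change -2.44, SE 0.16, adjusted p = 7.7e-19). The fitted folds were 8.78 lower for NAC055 and 5.41 lower for SEN1, with no overlap between the lines. WRKY75, a positive regulator, had 5.88 and 6.06 CPM in AhHAB4-PAI-1 OE leaves, against 44.3 and 39.4 CPM in Ah2880 OE leaves (log2 fold change -2.79, SE 0.25, adjusted p = 7.3e-14). The 1 gene higher under all scalings was WRKY70, a negative regulator of senescence that also acts in salicylic acid signalling, with 12.7 and 14.5 CPM in AhHAB4-PAI-1 OE leaves, against 0.764 and 2.16 CPM in Ah2880 OE leaves (log2 fold change 2.98, SE 0.43, adjusted p = 3.7e-08). SAG12, the protease gene most used as a senescence marker, was too low to test, with 3 and 0 counts in AhHAB4-PAI-1 OE and 1 and 2 counts in Ah2880 OE libraries.

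Of 18 autophagy genes, 0 were higher and 8 lower, with a median of −0.39. NBR1, a receptor for protein aggregates, had 315 and 301 CPM in AhHAB4-PAI-1 OE leaves, against 655 and 619.9 CPM in Ah2880 OE leaves (log2 fold change -1.05, SE 0.11, adjusted p = 2.3e-12). In starch and sugar metabolism, 16 of 25 genes were higher and 7 lower, with a median of 1.06. Their summed level was lower, however, at 2403 and 2414 CPM in AhHAB4-PAI-1 OE leaves, against 3017 and 2902 CPM in Ah2880 OE leaves. GBSS1, the granule-bound starch synthase, had 94.2 and 95.6 CPM in AhHAB4-PAI-1 OE leaves, against 24.5 and 25.5 CPM in Ah2880 OE leaves (log2 fold change 1.91, SE 0.16, adjusted p = 1.0e-14). The lower genes included CWINV1, a cell wall invertase, with 18.1 and 17.2 CPM in AhHAB4-PAI-1 OE leaves, against 323 and 314 CPM in Ah2880 OE leaves (log2 fold change -4.16, SE 0.13, adjusted p = 1.0e-31). STP1, a hexose importer, had 82.5 and 90.17 CPM in AhHAB4-PAI-1 OE leaves, against 407 and 387 CPM in Ah2880 OE leaves (log2 fold change -2.20, SE 0.12, adjusted p = 4.4e-23). An exporter went the other way. SWEET13, a sucrose exporter, had no count in Ah2880 OE and 7.0 and 8.41 CPM in AhHAB4-PAI-1 OE leaves, at least 4.29-fold higher. CWINV1 was 17.9-fold lower in AhHAB4-PAI-1 OE, and its 4 values fell into 2 tight pairs. Nitrogen genes went both ways, with 5 of 15 higher (4 under all 5 scalings) and 5 lower. NIR1, the nitrite reductase, had 261 and 284 CPM in AhHAB4-PAI-1 OE leaves, against 65.7 and 91.3 CPM in Ah2880 OE leaves (log2 fold change 1.76, SE 0.13, adjusted p = 9.4e-17). NIA2, the main nitrate reductase gene, had 1164 and 1085 CPM in AhHAB4-PAI-1 OE leaves, against 2065 and 2238 CPM in Ah2880 OE leaves (log2 fold change -0.94, SE 0.11, adjusted p = 2.5e-10).

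Abscisic acid genes were mostly lower in AhHAB4-PAI-1 OE leaves or did not pass the test. In synthesis and breakdown, 2 of 9 were higher and 5 lower. The 2 higher genes were CYP707A2, a paralog of CYP707A1, and ABA2, with log2 fold changes of 1.79 and 1.23. NCED3, the rate-limiting dioxygenase of stress-induced synthesis, had 18 and 18.17 CPM in AhHAB4-PAI-1 OE leaves, against 29.8 and 34.2 CPM in Ah2880 OE leaves (log2 fold change -0.84, SE 0.20, adjusted p = 2.4e-04), a call lost without Ah2880 OE replicate 2 (-0.72). CYP707A1, a hydroxylase that inactivates the hormone, had 25.4 and 25.6 CPM in AhHAB4-PAI-1 OE leaves, against 108 and 111 CPM in Ah2880 OE leaves (log2 fold change -2.10, SE 0.15, adjusted p = 2.6e-18). Among the receptors, 2 of 7 were higher (1 under all 5 scalings) and 2 lower, where 29.3% and 14.2% of all genes were called higher and lower. Their median of 0.25 was near the 0.32 of all genes. PYR1 had 78.6 and 72 CPM in AhHAB4-PAI-1 OE leaves, against 21.4 and 22.1 CPM in Ah2880 OE leaves (log2 fold change 1.79, SE 0.18, adjusted p = 1.5e-12). PYL5 had 9.54 and 8.41 CPM in AhHAB4-PAI-1 OE leaves, against 43.6 and 47.6 CPM in Ah2880 OE leaves (log2 fold change -2.32, SE 0.21, adjusted p = 3.1e-14), so that receptors of one family differed in opposite directions.

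The clade A PP2C phosphatases, which hold back the pathway and are themselves induced by the hormone, had 0 of 9 higher and 6 lower, with a median of −0.97. ABI1 had 129 and 111 CPM in AhHAB4-PAI-1 OE leaves, against 320.2 and 302 CPM in Ah2880 OE leaves (log2 fold change -1.36, SE 0.11, adjusted p = 5.1e-15). HAI1 had 67.1 and 58.9 CPM in AhHAB4-PAI-1 OE leaves, against 172 and 176 CPM in Ah2880 OE leaves (log2 fold change -1.45, SE 0.15, adjusted p = 2.8e-12). Downstream, 12 of 21 dehydration and abscisic acid response genes were lower (11 under all 5 scalings) and 3 higher, with a median of −0.80. RAB18, a dehydrin, had 296 and 315 CPM in AhHAB4-PAI-1 OE leaves, against 870.3 and 949 CPM in Ah2880 OE leaves (log2 fold change -1.58, SE 0.14, adjusted p = 8.9e-14). RD29B, a classic response gene with a related copy, had 78.9 and 64.6 CPM in AhHAB4-PAI-1 OE leaves, against 264 and 235 CPM in Ah2880 OE leaves (log2 fold change -1.78, SE 0.14, adjusted p = 1.4e-16). LEA4-5, a late embryogenesis abundant protein, had 36.6 and 36.3 CPM in AhHAB4-PAI-1 OE leaves, against 199 and 215 CPM in Ah2880 OE leaves (log2 fold change -2.51, SE 0.15, adjusted p = 4.2e-21). These dehydration genes lay lower in both AhHAB4-PAI-1 OE libraries than in both Ah2880 OE libraries. COR15B, a cold-regulated chloroplast protein, was the highest, with 24.8 and 22.5 CPM in AhHAB4-PAI-1 OE leaves, against 3.82 and 3.89 CPM in Ah2880 OE leaves (log2 fold change 2.61, SE 0.29, adjusted p = 5.2e-11).

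Small heat shock protein genes were lower in AhHAB4-PAI-1 OE leaves at R-3. Of 16, 0 were higher and 13 lower, also under all 5 scalings, with a median of −1.25, and their summed level was 757.9 and 734.2 CPM in AhHAB4-PAI-1 OE, against 1831 and 1998 CPM in Ah2880 OE leaves. HSP17.4 had 87.2 and 94.5 CPM in AhHAB4-PAI-1 OE leaves, against 316 and 369 CPM in Ah2880 OE leaves (log2 fold change -1.93, SE 0.16, adjusted p = 6.0e-15). HSP18.2 had 128 and 99.3 CPM in AhHAB4-PAI-1 OE leaves, against 317 and 353 CPM in Ah2880 OE leaves (log2 fold change -1.55, SE 0.14, adjusted p = 6.8e-14). The chloroplast protein HSP21 had 36.3 and 34 CPM in AhHAB4-PAI-1 OE leaves, against 60.4 and 49.3 CPM in Ah2880 OE leaves (log2 fold change -0.61, SE 0.17, adjusted p = 0.0016). The groups did not overlap in any of these genes, although HSP21 differed by only 1.52-fold and lost its call without Ah2880 OE replicate 1 (log2 fold change -0.48).

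Heat shock factors bind alternating GAA and TTC blocks, and the strict form of this element, GAANNTTCNNGAA or its other phase TTCNNGAANNTTC, was searched on both strands, each window being counted once, in the 300 bases before the annotated start of each gene in the reference assembly TAIR10.1. The element was present in 133 of 27443 windows of protein-coding genes (0.485%), in 96 of 18653 windows of tested genes (0.515%), in 2 of the 16 small heat shock protein windows (12.5%) and in 1 of the 25 windows of the large heat shock protein list (4%). The sites of both small heat shock protein genes are shown with the 13-base element in capitals, since these genes belong to the list that reversed between R-1 and R-3. The site of HSP17.4 lies on the minus strand at chr3:16984947-16984973, 99 bases before the start, and that of HSP17.6C on the plus strand at chr1:19980239-19980265, 53 bases before the start. HSP17.6C was named after its values were seen because it holds the element.
HSP17.4: caacataGAAGCTTCTTGAAgccacct
HSP17.6C: aacaccaGAAACTTCTTGAAagcacct
HSP17.6C had 71.4 and 67.6 CPM in AhHAB4-PAI-1 OE leaves, against 173 and 189.9 CPM in Ah2880 OE leaves (log2 fold change -1.38, SE 0.15, adjusted p = 1.6e-11). A match of letters is a description and not a measured binding site.

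At R-1, 1 day into recovery, the small heat shock protein genes had stood the other way. Of the 16 genes, 11 were higher in AhHAB4-PAI-1 OE and 0 lower, where 20.8% and 11.8% of all genes were called higher and lower, with a median of 0.85 beside 0.29 for all genes. The summed level at R-1 was 5216 and 4672 CPM in AhHAB4-PAI-1 OE leaves, against 1629 and 1690 CPM in Ah2880 OE leaves. HSP17.4 had at that stage 659.6 and 591 CPM in AhHAB4-PAI-1 OE leaves, against 239 and 249 CPM in Ah2880 OE leaves (log2 fold change 1.35), and HSP21 had 612 and 538 CPM in AhHAB4-PAI-1 OE leaves, against 55.2 and 38 CPM in Ah2880 OE leaves (log2 fold change 3.66). The change of the line difference between R-1 and R-3, tested as an interaction in the same fit, passed for 13 of the 16 genes, where 5.15% of all genes passed. For HSP18.2 this change was -3.74 on the log2 scale (adjusted p = 1.4e-20). The sums of AhHAB4-PAI-1 OE leaves at R-1 and R-3 were far apart, while those of Ah2880 OE leaves at both stages lay between 1629 and 1998 CPM.

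**Figure D3:**
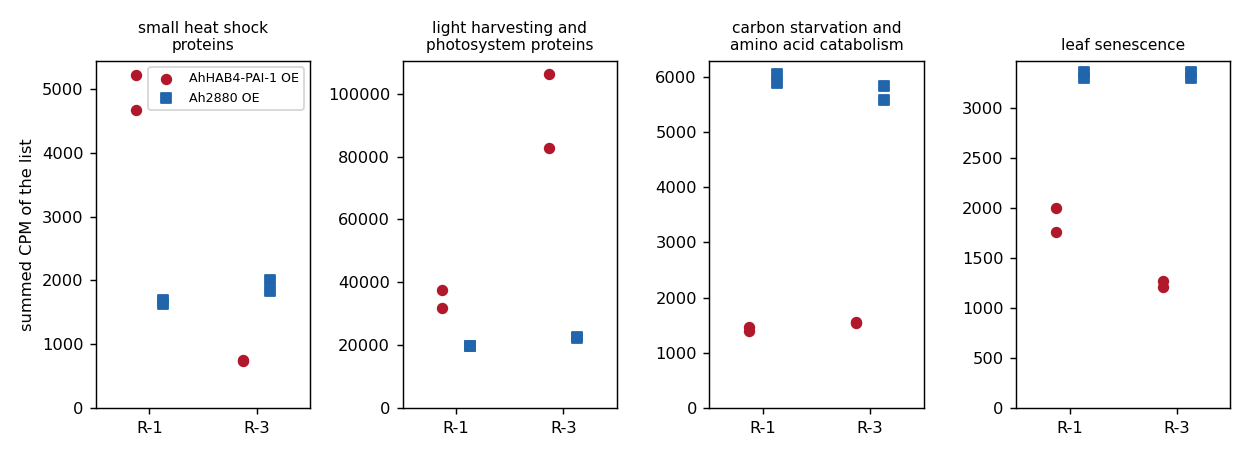
Summed TMM-scaled CPM of 4 gene lists in each library at R-1 and R-3, with red circles for AhHAB4-PAI-1 OE and blue squares for Ah2880 OE and axes that start at 0. Small heat shock proteins changed order between the stages (5216 and 4672 CPM in AhHAB4-PAI-1 OE at R-1, 757.9 and 734.2 CPM at R-3), light-harvesting genes separated further, and the small heat shock protein sums of Ah2880 OE lay between 1629 and 1998 CPM at both stages.

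Larger chaperones and thermotolerance genes went both ways. Of 25, 12 were higher (6 under all 5 scalings) and 10 lower. Cytosolic chaperones induced by heat were among the lower ones. HSP90.1 had 89.2 and 78.1 CPM in AhHAB4-PAI-1 OE leaves, against 205 and 211 CPM in Ah2880 OE leaves (log2 fold change -1.3, SE 0.13, adjusted p = 1.4e-12). HSP101 had 40.7 and 32.3 CPM in AhHAB4-PAI-1 OE leaves, against 62.7 and 60.6 CPM in Ah2880 OE leaves (log2 fold change -0.72, SE 0.17, adjusted p = 4.1e-04), and its call was lost without Ah2880 OE replicate 2 (log2 fold change -0.74). HSA32, needed for long-term acquired thermotolerance, had 27.8 and 29.9 CPM in AhHAB4-PAI-1 OE leaves, against 117 and 107 CPM in Ah2880 OE leaves (log2 fold change -1.95, SE 0.15, adjusted p = 8.4e-17). The genes that were higher included chloroplast and endoplasmic reticulum chaperones. CPHSC70-2, a stromal HSP70, had 293 and 291 CPM in AhHAB4-PAI-1 OE leaves, against 94.8 and 106 CPM in Ah2880 OE leaves (log2 fold change 1.53, SE 0.12, adjusted p = 5.2e-16). BIP3, an inducible HSP70 of the endoplasmic reticulum, had 23.7 and 16.2 CPM in AhHAB4-PAI-1 OE leaves, against 4.58 and 2.16 CPM in Ah2880 OE leaves (log2 fold change 2.75, SE 0.35, adjusted p = 1.7e-09). Among the heat shock factors, 1 of 17 was higher and 6 lower. HSFB1 had 74.1 and 66.6 CPM in AhHAB4-PAI-1 OE leaves, against 241 and 259 CPM in Ah2880 OE leaves (log2 fold change -1.82, SE 0.12, adjusted p = 1.4e-18). HSFA7A had 0.795 and 1.68 CPM in AhHAB4-PAI-1 OE leaves, against 6.88 and 10.8 CPM in Ah2880 OE leaves (log2 fold change -3.05, SE 0.40, adjusted p = 4.2e-09). HSFA2, which sustains the response, had 7.79 and 9.08 CPM in AhHAB4-PAI-1 OE leaves, against 3.82 and 9.95 CPM in Ah2880 OE leaves (adjusted p = 0.82) with overlapping groups.

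Jasmonate synthesis and response genes were higher in 14 of 28 (12 under all 5 scalings) and lower in 4, with a median of 0.45. LOX2, the chloroplast lipoxygenase that starts synthesis in leaves, had 1309 and 1369.7 CPM in AhHAB4-PAI-1 OE leaves, against 207 and 238 CPM in Ah2880 OE leaves (log2 fold change 2.58, SE 0.12, adjusted p = 5.6e-26). AOC2, an allene oxide cyclase, had 198 and 234 CPM in AhHAB4-PAI-1 OE leaves, against 13 and 16.9 CPM in Ah2880 OE leaves (log2 fold change 3.80, SE 0.18, adjusted p = 5.5e-25). VSP1, a vegetative storage protein induced by the hormone, had 396 and 531 CPM in AhHAB4-PAI-1 OE leaves, against 15.3 and 10.8 CPM in Ah2880 OE leaves (log2 fold change 5.20, SE 0.21, adjusted p = 7.3e-28). In these genes both AhHAB4-PAI-1 OE libraries lay above both Ah2880 OE libraries. PED1, a thiolase of peroxisomal beta-oxidation, which serves jasmonate synthesis and fatty acid breakdown, was lower, with 90.18 and 124 CPM in AhHAB4-PAI-1 OE leaves, against 351 and 326 CPM in Ah2880 OE leaves (log2 fold change -1.68, SE 0.15, adjusted p = 1.1e-14). CYP94B3, which oxidises the active hormone, was also lower, with 19.7 and 13.8 CPM in AhHAB4-PAI-1 OE leaves, against 82.5 and 75.7 CPM in Ah2880 OE leaves (log2 fold change -2.17, SE 0.17, adjusted p = 9.3e-16). The fitted folds were 5.98 for LOX2 and 36.8 for VSP1.

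In the salicylic acid and defence list, 7 of 16 tested were higher, of which 2 held under all 5 scalings, and 5 were lower. PR1, the marker of the pathway, had 17 and 16.5 CPM in AhHAB4-PAI-1 OE leaves, against 3.82 and 4.33 CPM in Ah2880 OE leaves (log2 fold change 2.01, SE 0.38, adjusted p = 1.1e-05). DMR6, a hydroxylase that degrades salicylic acid, had 16.7 and 18.17 CPM in AhHAB4-PAI-1 OE leaves, against 73.4 and 73.5 CPM in Ah2880 OE leaves (log2 fold change -2.09, SE 0.18, adjusted p = 4.5e-15). PR1 was a low transcript in all 4 libraries, and its call was lost without replicate 1 or replicate 2 of both lines (log2 fold changes of 1.56 and 1.82). Of 10 ethylene genes, 1 was higher, a call that did not hold under all 5 scalings, and 5 were lower. ACS2, a synthase of the ethylene precursor, had 12.6 and 12.1 CPM in AhHAB4-PAI-1 OE leaves, against 71.8 and 75.3 CPM in Ah2880 OE leaves (log2 fold change -2.57, SE 0.17, adjusted p = 5.7e-19). EIN3, the master regulator, had 184 and 185 CPM in AhHAB4-PAI-1 OE leaves, against 196 and 200.3 CPM in Ah2880 OE leaves (adjusted p = 0.45).

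Flavonoid genes were higher in 11 of 13 tested (10 under all 5 scalings) and lower in 0, with a median of 1.39. CHS, the chalcone synthase at the entry, had 415 and 458 CPM in AhHAB4-PAI-1 OE leaves, against 117 and 138 CPM in Ah2880 OE leaves (log2 fold change 1.76, SE 0.13, adjusted p = 7.2e-17). FLS1, the main flavonol synthase, had 51.1 and 50.5 CPM in AhHAB4-PAI-1 OE leaves, against 11.46 and 7.79 CPM in Ah2880 OE leaves (log2 fold change 2.47, SE 0.21, adjusted p = 9.2e-15). PAP1, a regulator of anthocyanins, had 34.2 and 35 CPM in AhHAB4-PAI-1 OE leaves, against 5.35 and 8.22 CPM in Ah2880 OE leaves (log2 fold change 2.26, SE 0.27, adjusted p = 2.0e-10). The groups did not overlap in these genes. Of 25 genes for scavenging of and signalling by reactive oxygen species, 10 were higher (9 under all 5 scalings) and 8 lower. FSD1, a chloroplast superoxide dismutase, had 152 and 204 CPM in AhHAB4-PAI-1 OE leaves, against 19.1 and 21.6 CPM in Ah2880 OE leaves (log2 fold change 3.09, SE 0.21, adjusted p = 1.1e-18). The stress-induced zinc finger factor ZAT10 had 11.1 and 12.1 CPM in AhHAB4-PAI-1 OE leaves, against 79.5 and 85.6 CPM in Ah2880 OE leaves (log2 fold change -2.85, SE 0.18, adjusted p = 2.1e-19). APX1, the cytosolic ascorbate peroxidase, had 103 and 148 CPM in AhHAB4-PAI-1 OE leaves, against 145 and 112 CPM in Ah2880 OE leaves (adjusted p = 0.86) with overlapping groups.

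A. thaliana has 3 relatives of the amaranth AhHAB4-PAI-1 protein, the RGG-box proteins RGGA, RGGB and RGGC. RGGC had 108 and 119 CPM in AhHAB4-PAI-1 OE leaves, against 61.9 and 63.2 CPM in Ah2880 OE leaves (log2 fold change 0.85, SE 0.14, adjusted p = 9.4e-07), a call lost without replicate 2 of both lines (0.47). RGGA had 114 and 108 CPM in AhHAB4-PAI-1 OE leaves, against 122 and 118 CPM in Ah2880 OE leaves (adjusted p = 0.5). RGGB had 177 and 194 CPM in AhHAB4-PAI-1 OE leaves, against 141 and 142 CPM in Ah2880 OE leaves, a difference called with TMM scaling (log2 fold change 0.39, adjusted p = 0.0049) but not under all 5 scalings, and lost without either Ah2880 OE library or AhHAB4-PAI-1 OE replicate 2 (0.33 to 0.40). The highest of these folds was thus 1.8-fold. Aquaporins were mixed, with 7 of 16 higher (5 under all 5 scalings) and 3 lower. PIP1;2 and PIP2;1, abundant plasma membrane water channels, did not pass the test with TMM scaling (adjusted p = 0.1 and 0.13), and the vacuolar TIP2;1 had 782 and 867 CPM in AhHAB4-PAI-1 OE leaves, against 318 and 324 CPM in Ah2880 OE leaves (log2 fold change 1.36, SE 0.11, adjusted p = 8.8e-16).

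Of 16 circadian clock genes at R-3, 2 were higher, neither of which held under all 5 scalings, and 5 were lower, with a median of −0.20. CCA1, the morning factor, had 139 and 153 CPM in AhHAB4-PAI-1 OE leaves, against 141 and 134 CPM in Ah2880 OE leaves (adjusted p = 0.59). TOC1, its evening counterpart, had 24.5 and 26.6 CPM in AhHAB4-PAI-1 OE leaves, against 42 and 39.4 CPM in Ah2880 OE leaves (log2 fold change -0.67, SE 0.17, adjusted p = 9.3e-04), a call lost without AhHAB4-PAI-1 OE replicate 1, Ah2880 OE replicate 1 or Ah2880 OE replicate 2 (-0.60 to -0.73). At R-1, however, 5 had been higher and 8 lower, and the line difference changed between the stages in 13 of the 16 genes. ELF4, an evening complex protein, had 44.6 and 50.1 CPM in AhHAB4-PAI-1 OE leaves, against 9.01 and 6.58 CPM in Ah2880 OE leaves at R-1 (log2 fold change 2.67) and 3.98 and 2.36 CPM in AhHAB4-PAI-1 OE leaves, against 10.7 and 9.52 CPM in Ah2880 OE leaves at R-3 (log2 fold change -1.52, SE 0.35, adjusted p = 2.2e-04). The labels do not give the hour of sampling.

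Some genes had many counts in 1 line and few or none in the other. They were taken from the genes with a mean of at least 50 counts in the higher line, no overlap between the lines and the highest or lowest fitted fold, a ranking that has no exact order where a line has no count, so that their folds are given as bounds. AT1G66100, annotated as a plant thionin, a class of antimicrobial peptides, had 68.4 and 80.1 CPM in AhHAB4-PAI-1 OE leaves, at least 41.4-fold higher. AT5G33370, a GDSL-like lipase gene, had 40.1 and 60.6 CPM in AhHAB4-PAI-1 OE leaves and was at least 28-fold higher. These genes, DCF and BEE2 had no count in either Ah2880 OE library. DCF, an acyltransferase of cutin, had 36.4 and 34.7 CPM in AhHAB4-PAI-1 OE leaves and was at least 19.8-fold higher. BEE2, a transcription factor induced by brassinosteroids, had 30.7 and 31.6 CPM in AhHAB4-PAI-1 OE leaves and was at least 17.36-fold higher. These bounds set 3 counts in each Ah2880 OE library.

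The opposite pattern held for AT5G64100, a peroxidase gene, with no count in AhHAB4-PAI-1 OE and 96.3 and 82.6 CPM in Ah2880 OE leaves, at least 120.3-fold higher in Ah2880 OE. AT3G05950, a cupin gene, likewise had no count in AhHAB4-PAI-1 OE and 58.8 and 51 CPM in Ah2880 OE leaves. PER4, a peroxidase gene, had 0 and 0.336 CPM in AhHAB4-PAI-1 OE leaves, against 39 and 32 CPM in Ah2880 OE leaves. Secreted plant peroxidases act on cell walls and on reactive oxygen species. AT5G39580, another gene of this class, had 0.636 and 0.336 CPM in AhHAB4-PAI-1 OE leaves, against 60.4 and 60.6 CPM in Ah2880 OE leaves (log2 fold change -6.69, SE 0.32, adjusted p = 4.1e-24). AT2G33160, a polygalacturonase gene, had 1.11 and 0 CPM in AhHAB4-PAI-1 OE leaves, against 95.5 and 92.1 CPM in Ah2880 OE leaves (log2 fold change -6.87, SE 0.30, adjusted p = 5.0e-28).

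In absolute terms, the largest gains of AhHAB4-PAI-1 OE leaves were in LHCB1 genes and LHCB3, and the largest deficits besides 18S rRNA were in EXT4, NIT2 and AT1G03220. EXT4, a cell wall extensin, had 399 and 737 CPM in AhHAB4-PAI-1 OE leaves, against 6205 and 5119.9 CPM in Ah2880 OE leaves (log2 fold change -3.33, SE 0.19, adjusted p = 7.7e-22). NIT2, a nitrilase, had 552 and 640.3 CPM in AhHAB4-PAI-1 OE leaves, against 3570.0 and 3236 CPM in Ah2880 OE leaves (log2 fold change -2.52, SE 0.12, adjusted p = 2.7e-24). AT1G03220, an aspartyl protease gene, had 709.5 and 738 CPM in AhHAB4-PAI-1 OE leaves, against 2544 and 2591 CPM in Ah2880 OE leaves (log2 fold change -1.83, SE 0.11, adjusted p = 1.4e-20). The AhHAB4-PAI-1 OE libraries differed from each other more in EXT4 than the Ah2880 OE libraries did, and the lines did not overlap in these genes.

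Between the 2 stages of recovery, differences in Ah2880 OE were close to those between replicates, which bears on any comparison of R-3 with R-1. No gene was called between R-3 and R-1 in Ah2880 OE by edgeR (1073 at an unadjusted p under 0.05) or by DESeq2 (803 at an unadjusted p under 0.05), whereas 3473 genes were called in AhHAB4-PAI-1 OE by edgeR and 2955 by DESeq2. The chi-square per degree of freedom between Ah2880 OE libraries of different stages was 1.35 to 1.49, against 1.12 between the R-1 replicates and 1.39 between the R-3 replicates, and in AhHAB4-PAI-1 OE it was 13.0 to 24.7 between stages, against 2.64 and 3.59 between replicates. Calls and chi-square both rise with depth where libraries differ. At R-1, Ah2880 OE libraries held 686550 and 1044829 counts, against 1233468 and 3967374 in AhHAB4-PAI-1 OE, and at R-3 they were also the shallower ones. No fit within a line was run at one depth, so the part of depth in this contrast was not tested. Whether the Ah2880 OE libraries of the stages came from separate material was not tested, so that the line differences at R-1 and R-3 could not be taken as independent of each other.

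Of the genes higher at R-3, 3267 were also higher at R-1, which is 56.4% of the R-3 and 79.5% of the R-1 list, and 35 were lower at R-1. Of the genes lower at R-3, 1723 were also lower at R-1, 61.5% of the R-3 and 74.0% of the R-1 list, and 57 were higher at R-1. The line difference changed between the stages in 1017 genes (5.15% of those tested), 513 upward and 504 downward, and leaving out the WT R-3 libraries made this 371 upward and 733 downward. In the light-harvesting list, 32 of 43 genes changed, with a median of 1.17 at R-1 and 2.24 at R-3, and LHCB3 had 1127 and 947 CPM in AhHAB4-PAI-1 OE leaves, against 427 and 423 CPM in Ah2880 OE leaves at R-1. In the carbon starvation list, 7 of 29 changed, and the median of −1.85 at R-1 was close to that of R-3. ASN1 had 32.5 and 28.2 CPM in AhHAB4-PAI-1 OE leaves, against 742 and 667 CPM in Ah2880 OE leaves at R-1 (log2 fold change -4.57). Of 29 cell division genes, 0 changed, and 2 of 23 aliphatic glucosinolate genes did, while medians were 1.82 and 2.55 in the cell division list and 3.38 and 4.65 in the glucosinolate list at R-1 and R-3. A p that misses the threshold does not show that a difference stayed the same.

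**Figure D4:**
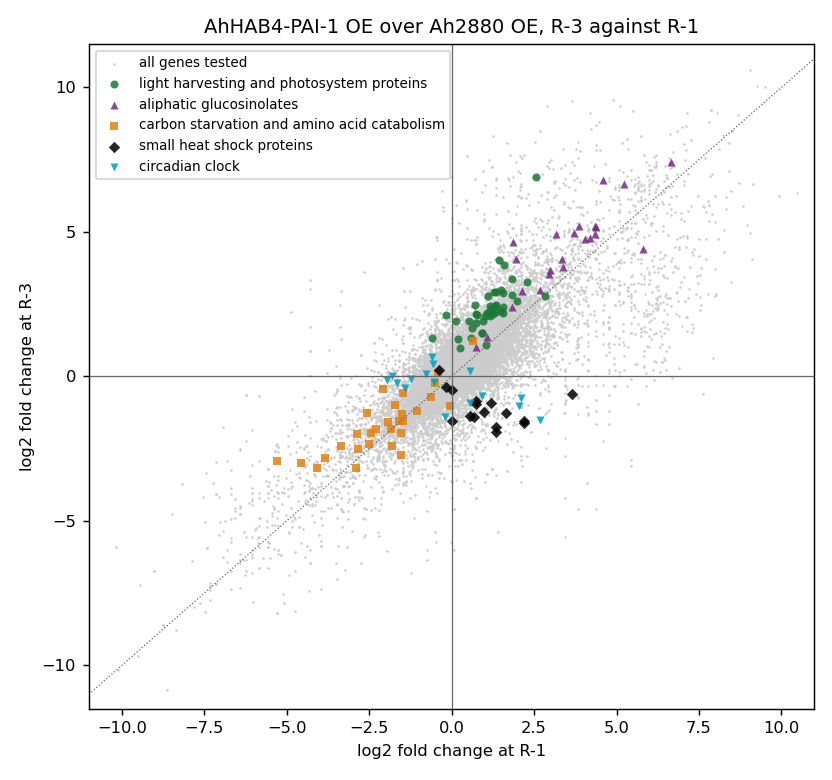
Log2 fold change of AhHAB4-PAI-1 OE over Ah2880 OE at R-3 (vertical) against that at R-1 (horizontal) for all genes tested in grey and for 5 gene lists in color, with the line of equal values dotted. Small heat shock proteins lie mostly below and to the right of the origin (medians 0.85 at R-1 and −1.25 at R-3), and light-harvesting genes lie mostly above the dotted line.

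During the heat treatment itself the lines had differed in another way. At 1 h of heat (HS-1), 5.5 h by the labels (HS-5) and 11 h (HS-11), 8.28%, 12.1% and 25.9% of the genes were higher in AhHAB4-PAI-1 OE and 8.78%, 14.4% and 21.6% were lower. Of the genes higher at R-3, 670 were higher and 660 lower at HS-1, 726 were higher and 1195 lower at HS-5, and 1689 were higher and 1345 lower at HS-11. In stage order, median log2 fold changes of the aliphatic glucosinolate list were −0.33, −2.16 and −0.19, and those of the light-harvesting list 0.11, 0.01 and −0.03. Members of both lists differed under heat as well, since 17 of the 23 glucosinolate genes were lower at HS-5, and 13 light-harvesting genes were higher and 14 lower at HS-11. The clade A PP2C list had a median of 2.06 at HS-11, with 7 of 9 genes higher, beside −0.97 at R-3. A total of 1291 of the 19761 genes tested were called at R-3 and at no other stage.

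**Figure D5:**
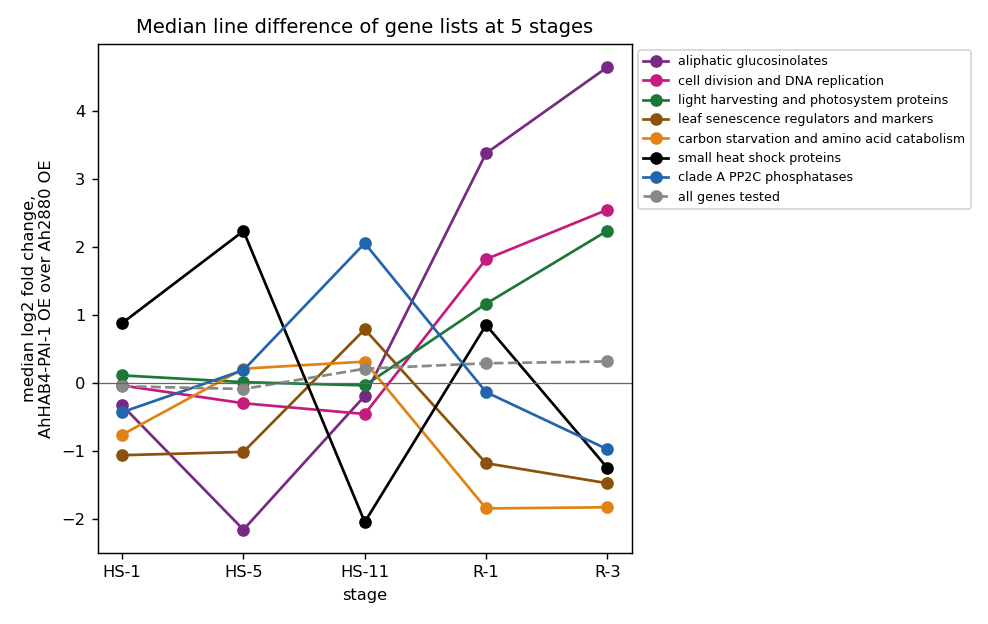
Median log2 fold change of AhHAB4-PAI-1 OE over Ah2880 OE at 5 stages for 7 gene lists and for all genes tested (grey, dashed). Fitted values of genes at the floor of 3 counts are included, the aliphatic glucosinolate list moves to 3.38 at R-1 and 4.65 at R-3, and the small heat shock protein list changes sign 3 times, from HS-5 (2.24) to HS-11 (−2.05), R-1 (0.85) and R-3 (−1.25).

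At all 5 stages, 26 of the 19761 genes tested were higher and 22 lower in AhHAB4-PAI-1 OE. GSTF7, a glutathione S-transferase induced by defence, had 14 and 16.5 CPM in AhHAB4-PAI-1 OE leaves, against 429 and 413 CPM in Ah2880 OE leaves at R-3 (log2 fold change -4.81, SE 0.16, adjusted p = 5.8e-32). Its log2 fold change was -5.44 at R-1, and under heat it was -2.23, -2.87 and -5.14 in order of stage. MLP34, a major latex protein-like gene, had 0.795 and 0.673 CPM in AhHAB4-PAI-1 OE leaves, against 46.6 and 41.5 CPM in Ah2880 OE leaves at R-3 (log2 fold change -5.76, SE 0.34, adjusted p = 2.4e-21). In the other direction, AT1G60590, a pectin lyase-like gene, had 46.4 and 48.8 CPM in AhHAB4-PAI-1 OE leaves, against 5.35 and 5.62 CPM in Ah2880 OE leaves at R-3 (log2 fold change 3.09, SE 0.28, adjusted p = 7.9e-14). AT1G70200, an RNA-binding protein gene, had 68.4 and 51.1 CPM in AhHAB4-PAI-1 OE leaves, against 15.3 and 19.5 CPM in Ah2880 OE leaves (log2 fold change 1.77, SE 0.21, adjusted p = 4.5e-10). These genes kept the order of the lines throughout heat and recovery, which is how they were selected.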

How the data were processed

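RNA-seq libraries of leaves from 3 lines at 5 stages (30 libraries, 2 per line and stage) were read from a table of counts per gene. According to the labels and methods, the authors used Bowtie2 to map the cleaned reads (TAIR10), Samtools to sort them, Picard to remove duplicates and Subread to count uniquely mapped reads, and deposited the counts without normalization. The annotation release and the strand setting are not given in the sources used here, so reads of overlapping or antisense genes cannot be told apart, and near-identical copies lose shared reads.

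Counts were fitted in R 4.3.3 with edgeR 4.0.16 (filterByExpr over 15 treatments, TMM, glmQLFit with legacy set to FALSE, glmQLFTest), 1 mean per treatment and Benjamini-Hochberg adjustment over the 19761 genes tested. The common dispersion was 0.00596. SE is the size of the log2 fold change over the square root of F. Alternatives used DESeq2 1.42.0, other scalings, filters, library subsets, thinning, the replicate number as a block and the legacy form. The form that is not legacy was taken although the installed default is the legacy one. The main fit did not pair libraries by replicate number. Deviations of same-numbered libraries correlated at r = −0.0106 across genes at R-3. This value cannot exclude shared experiments, because the Ah2880 OE replicates differed little beyond counting noise (chi-square per degree of freedom 1.39). The fit was tested on simulated data drawn with the common dispersion for every gene. That test does not cover differences in spread between genes or between lines. Folds against a line with at most 3 counts in each library are bounds, computed after setting those libraries to 3 counts, and cover counting error only.

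The members and gene lists (654 loci in 37 lists) were chosen with earlier results of these data known. Named genes are key members marked in the lists, the 2 highest and 2 lowest called members of each list, the 10 highest and 10 lowest of all genes called with a mean of at least 50 counts in the higher line and no overlap, the 5 highest and 5 lowest called in one direction at all 5 stages, and the 5 largest CPM differences in each direction. HSP17.6C was added for its promoter element. Symbols, products and sequences come from the RefSeq assembly TAIR10.1, whose coordinates are given only for these sequences. Figures and tables were made with Python 3.11.15.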

Additional observations from a re-analysis of the deposited data

Results flagged for a closer look

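The line difference between AhHAB4-PAI-1 OE and Ah2880 OE changed from R-1 to R-3 in 1017 genes at an adjusted p under 0.01 by edgeR’s test of the interaction, 513 upward and 504 downward. A large change of this kind was that of the peroxidase gene AT5G39580, whose line difference moved by -3.45 on the log2 scale, to -6.69 at R-3 beside -3.24 at R-1. In the list of light-harvesting and photosystem proteins, 32 of 43 genes changed. In the list of small heat shock proteins, 13 of 16 changed, with medians on opposite sides of 0 at R-1 (0.85) and R-3 (−1.25). In the circadian clock list, 13 of 16 changed, with medians of −0.55 at R-1 and −0.20 at R-3. Within lines, edgeR called 3473 genes between R-3 and R-1 in AhHAB4-PAI-1 OE and 0 in Ah2880 OE (0 by DESeq2, with 1073 and 803 at an unadjusted p under 0.05). The AhHAB4-PAI-1 OE libraries were the deeper ones at both stages, and the part of depth in this contrast was not tested.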

How the results depend on the processing

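At R-3, 8589 genes differed between AhHAB4-PAI-1 OE and Ah2880 OE, and the count was 5506 after thinning to one depth and 5274 to 7969 when replicates were left out in turn. At R-1 the count was 6437, against 3660 after thinning and 3051 to 5879 with replicates left out (3733 without Ah2880 OE replicate 2). The line difference changed between the stages in 1017 genes, against 392 after thinning and 492 to 967 with replicates left out (614 without Ah2880 OE replicate 2). Thinning was run with only the libraries compared in the fit, and it leaves fewer counts and fewer genes to test. The other alternatives run kept these counts within 1.5 times, and so did the 5 run for the heat stages (DESeq2 size factors and Wald test, no filter, without the WT R-3 libraries, replicate block). The share of R-3 calls that were higher was 67.4%, against 47.2% without the WT R-3 libraries, 48.6% without a filter on low counts, 46.6% and 45.5% without replicate 1 and replicate 2, 51.7% after thinning, 52% with only the libraries compared, 56% with upper-quartile factors and 64.4% with DESeq2. The cause was not tested. Of 2028 values rechecked for 127 of the named genes, 27 lost the call, 19 gained one and 0 reversed. RGGB lost its call in 10 alternatives, and PIP1;2, PIP2;1, EIN3, RGGA and PPH gained one as lower genes without the WT R-3 libraries (log2 fold changes of -0.58, -0.56, -0.45, -0.46 and -0.43). With the replicate block, 8541 genes were called at R-3, of which 8476 were among the 8589. The block moved no count by 1.5 times and ended no call among the named genes rechecked. The labels do not say whether same-numbered libraries came from the same experiment. Depth limits low genes most, above all in Ah2880 OE, where the shallower library held 1025085 counts.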
